A study of Mus musculus with 15 samples.

Results

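The 10 lung tumours of Rb/p53 mice were compared with the 2 normal lungs of the same array series, 12 of its 15 arrays, across all genes and with attention to gene groups beyond the neuroendocrine and cell-cycle genes by which this model is usually described. The study measured expression on Affymetrix mouse genome arrays, in mice that model small cell lung cancer, to set the tumours beside the human disease. The tumours are labelled RbΔ/Δ; p53 Δ/Δ and came from mice that inhaled an adenovirus carrying Cre recombinase through the nose and were then aged for 8 to 12 months. The lungs are labelled wild-type, normal, tumour-free and adult, with no age in months and no mention of virus. A further 3 tumours also lacked p130 (encoded by Rbl2) and were taken at 6 months, and they enter here only beside some results. Cre deletes its targets only in the airway cells that the virus enters, so a dissected tumour also holds host vessels, stroma and immune cells that kept both genes. RNA of every sample was isolated with Trizol and amplified over 2 rounds, and the deposited values are log2 expression values. Whether each array stands for its own mouse is not said in the labels, and the p-values then reflect the spread between samples alone, which may be technical. Each gene was read from its brightest probe set, which gave 18193 genes.

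Small cell lung cancer is a fast-growing tumour with features of the neuroendocrine cells of the airway, and loss of both RB and p53 is its genetic hallmark. Normal lung is instead mostly made of alveolar epithelium, capillary endothelium, fibroblasts and immune cells, with ciliated and club cells in the airways. Setting tumour against whole lung therefore sets a mass of dividing cells against a tissue of many resting cell types.

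Array medians lay between 6.58 and 6.68. Across probe sets the correlation was 0.983 between the lungs, 0.948 to 0.989 between tumours (45 pairs) and 0.842 to 0.909 between tumour and lung (20 pairs); no 2 arrays held identical values. RNA quality moved with the groups. The log2 difference between the 3' and 5' Gapdh control probe sets, which grows as RNA shortens, was 0.88 and 0.72 in the lungs and -0.07 to 0.36 in the tumours, without overlap. The same difference for actin was 1.99 and 1.33 in the lungs and 0.50 to 1.35 in the tumours. Because the Gapdh difference separates the groups by itself, a fit with it as a covariate has little information left on the group difference. The calls of that fit are given beside the gene groups, and its part in the results was not tested. Values written as 3 numbers for the tumours are the lowest, the median and the highest of the 10 arrays, changes are log2 differences of tumours minus lungs with their SE, and adjusted p-values are limma's, over all probe sets.

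The genes targeted in the series were read first. Rb1 was 10.05 and 10.34 in the lungs, 10.97, 11.59 and 12.19 in the tumours, without overlap, and higher by 1.30 ± 0.27 (adjusted p = 0.00154). Rbl2 was 9.56 and 9.58 in the lungs and 7.68, 8.74 and 9.09 in the tumours, and its change -0.91 ± 0.27, adjusted p = 0.0178. Rbl2 is targeted only in the further tumours that also lacked p130, so its change here is not that of a gene removed by Cre. The position of the Rb1 probe set against the exons removed by Cre is unknown here, and its signal is no check of the labels. Trp53 was not analysed here. The Rb1 call ended with the Gapdh covariate, and the Rbl2 call with it and without either lung.

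Markers of the labelled tissues followed their labels. The classic neuroendocrine list had 31 of 37 members called higher and 0 lower (median change 4.53), and the classic cell-cycle list 65 of 65 higher (median 4.11). All 10 markers of alveolar type 1 cells were called lower (median -3.39), as were 15 of 16 of endothelium (-3.39), 11 of 14 of club and ciliated cells (-3.35), 12 of 15 of fibroblasts and smooth muscle (-2.28), 8 of 10 of alveolar type 2 cells (-2.62), 10 of 20 of immune cells (-1.44) and 10 of 11 of cardiac muscle (-4.57), a tissue that sheathes the pulmonary veins of mice. Some defining genes of the lung kept a high signal in the tumours. Sftpc, the surfactant protein of type 2 cells, was 10.89, 13.56 and 14.56 in the tumours against 14.90 and 14.86 in the lungs, and Scgb1a1, the secretoglobin of club cells, was 15.20 and 15.19 in the lungs, 13.75, 14.32 and 14.97 in the tumours. The groups did not overlap for either gene, yet neither passed the test (adjusted p = 0.156 and 0.0515). Scgb1a1 stood at the top of the lung arrays, whose highest values were 15.20 and 15.19. Whether signal is compressed there was not tested. Col3a1, a fibroblast collagen, and Vwf, the endothelial clotting factor, overlapped between the groups (-0.24 ± 0.36 and -0.39 ± 0.24, adjusted p = 0.659 and 0.234). In bulk tissue, fewer cells of a type and less RNA per cell cannot be told apart. With the Gapdh covariate 21 neuroendocrine and 56 cell-cycle markers stayed called higher, and the markers called lower numbered 1 for type 1 cells, 4 for endothelium, 4 for club and ciliated cells, 3 for fibroblasts and smooth muscle, 0 for type 2 cells, 1 for immune cells and 3 for cardiac muscle. Without normal lung 1 or 2 the called type 2 markers numbered 3 and 3, and the immune markers called lower without normal lung 1 numbered 6.

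The tumours differed from lung in a large part of the transcriptome. In limma 7058 of 18193 genes were called at an adjusted p under 0.05 (38.8%), 3328 higher (18.3%) and 3730 lower (20.5%), and 4179 of the called genes differed by at least 2-fold. For 6993 genes (38.4%) the 10 tumour and 2 lung arrays did not overlap, and 6330 genes were both called and without overlap. Rises of 8-fold or more numbered 361 and falls of that size 384. Over all genes the median change was -0.03, so medians of gene groups are read against about 0. With 1 lung left out 4604 (without normal lung 1) or 4705 (without normal lung 2) genes were called, 3660 stayed called without any single array, and with the Gapdh covariate 1106 were called.

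The 20 highest rises outside the classic lists included a peptide hormone, neuronal proteins, growth factors and genes of cell division. Iapp, the amyloid peptide hormone that islet beta cells release with insulin, was 5.26 and 5.08 in the lungs and 8.97, 11.67 and 12.89 in the tumours. The groups were far apart, with a wide spread among tumours, and the rise was 72.6-fold (change 6.18 ± 0.97, adjusted p = 0.000172). Nol4, a nucleolar protein, was 10.74, 11.14 and 11.98 in the tumours against 4.95 and 4.92 in the lungs (at least 72.2-fold, change 6.29 ± 0.22). Gdap1, a mitochondrial fission protein of neurons, was 4.55 and 5.00 in the lungs, 10.37, 10.97 and 11.21 in the tumours and rose by at least 57.8-fold, with the tumours in a narrow band. The heparin-binding growth factor Ptn (52.3-fold), the Notch-binding transmembrane protein Dner (51.1-fold), the tubulin-binding Stmn3 (50.6-fold), the endocytic adaptor Snap91 (at least 39.8-fold) and the matricellular Ccn3 (41-fold) all rose without overlap. Bex1, a small adaptor of neural cells, was already at 7.74 and 7.64 in lung and reached 12.20, 13.12 and 13.45 in the tumours (40.9-fold, change 5.35 ± 0.23, adjusted p = 1.11e-09). The granule membrane protein Ptprn2 (38.9-fold), the nucleotide-sugar carrier relative Slc35d3 (43.5-fold), and the imprinted neuronal proteolipid Nnat (34-fold) rose too. Ttr, the thyroxine carrier, was 5.33 and 4.98 in the lungs and 7.75, 10.34 and 13.08 in the tumours (38.3-fold, change 5.26 ± 1.07, adjusted p = 0.00147). Racgap1 and Spc25, of cytokinesis and the kinetochore, were the members of this set that belong to cell division (33.7-fold and 37.8-fold). With the Gapdh term in the fit the calls of Iapp, Nnat and Ttr ended.

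The 20 deepest falls included atrial muscle proteins, detoxifying enzymes and proteins of capillaries and cilia. Car3, a carbonic anhydrase of muscle and fat, was 11.73 and 12.57 in the lungs and 4.32, 4.55 and 10.53 in the tumours (109-fold lower, change -6.77 ± 1.42), and a single tumour stood apart from the others, nearer to the lungs. Myh6, the atrial myosin heavy chain, was 3.93, 4.92 and 7.36 in the tumours against 11.83 and 11.73 in the lungs (91.7-fold lower), and the atrial genes Myl7 (43.1-fold), Sln (32.8-fold), Myl4 (30.3-fold) and Actc1 (30.0-fold) fell with it. Over the whole cardiac muscle list the mean log2 level was 10.32 and 10.38 in the lungs and 5.35 to 7.61 in the tumours. Myh6, Myl7, Sln, Myl4 and Actc1 are themselves members of that list, so its mean is not a separate measure. The part of cardiac muscle content in these falls was not tested. Cyp1a1, a cytochrome P450 induced by aromatic hydrocarbons, was 10.78 and 11.42 in the lungs, 4.51, 5.11 and 6.22 in the tumours (58.9-fold lower, change -5.88 ± 0.36, adjusted p = 1.93e-08). The tumour arrays lay near the floor of 5.05, the highest lower quartile of the arrays, below which folds are given as lower bounds. The sulfotransferase Sult1d1 fell by at least 54.8-fold and the glutathione transferase Gsta2 by at least 40.5-fold. Tmem100, a BMP target of capillaries, was 11.76 and 12.61 in the lungs and 4.47, 5.88 and 8.49 in the tumours. Car4, a carbonic anhydrase on the alveolar capillary surface (35.9-fold lower), Hpgd, which breaks down prostaglandins (38.9-fold), the anticoagulant receptor Thbd (29.9-fold) and the guidance ligand Sema3c (31.1-fold) also fell. Rsph4a, of the ciliary radial spoke, was 4.31, 5.09 and 5.48 in the tumours against 10.17 and 9.65 in the lungs, the narrowest tumour range of these falls. Its tumour arrays also lay around the floor of 5.05, so that range is not read as a uniform level. The alveolar type 1 glycoprotein Gpm6a (39.9-fold), the collagen-processing enhancer Pcolce2 (37.5-fold), the platelet chemokine Ppbp (30.6-fold), the envelope protein Scel (29.9-fold) and the oxidase Aox3 (28.5-fold) made up the rest. In the fit with the Gapdh covariate the calls of Cyp1a1, Sult1d1, Rsph4a and Scel held and the others named here ended.

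**Figure D1:**
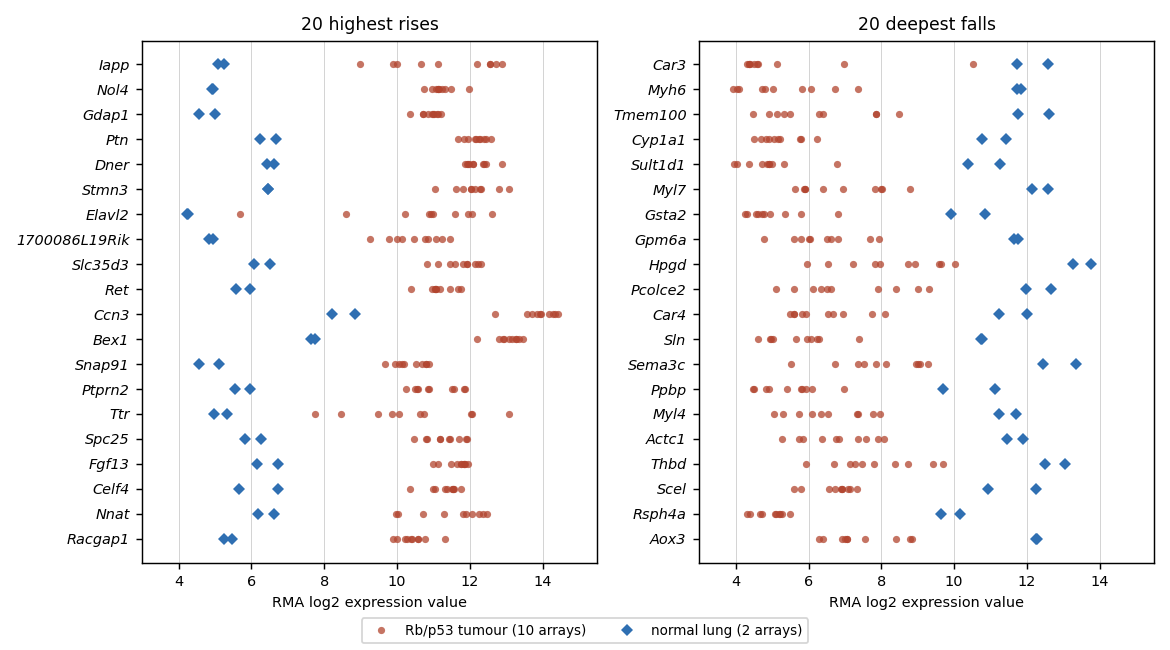
RMA log2 values of the 20 highest rises (left) and 20 deepest falls (right) outside the classic lists, on each of the 10 Rb/p53 tumour arrays (circles) and 2 normal lung arrays (diamonds). In no gene shown do the groups overlap; Elavl2, Car3 and Ttr had the largest SD among the tumours.

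Promoter sequence was read for a few genes described here, to show what lies ahead of their start sites. RefSeq (build GRCm38.p6) gave 1 promoter of 250 bases before and 50 after the start for 11791 of the genes, among them 66 of the 100 highest rises and 66 of the 100 deepest falls. The 80 bases before the start are printed 5' to 3' on the gene's strand for 5 rises and 2 falls, with each searched motif in capitals. Lrp11 stands here as the most uniform rise described further on, Bex1 as a gene of high level, Mthfd2 as the highest rise of its list, Kpna2 as a rise of nuclear transport, Celsr3 as a cadherin that rose, and Cyp1a1 and Car4 as deep falls.
Lrp11 (chr10:7589737-7589816, plus strand): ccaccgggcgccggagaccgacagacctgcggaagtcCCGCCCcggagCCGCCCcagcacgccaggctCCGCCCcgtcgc
Bex1 (chrX:136215514-136215593, minus strand): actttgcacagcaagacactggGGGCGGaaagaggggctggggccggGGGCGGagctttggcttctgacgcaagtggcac
Mthfd2 (chr6:83317605-83317684, minus strand): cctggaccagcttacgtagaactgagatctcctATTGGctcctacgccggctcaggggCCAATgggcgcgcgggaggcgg
Kpna2 (chr11:106999526-106999605, minus strand): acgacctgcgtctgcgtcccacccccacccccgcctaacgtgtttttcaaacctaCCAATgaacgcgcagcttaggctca
Celsr3 (chr9:108825965-108826044, plus strand): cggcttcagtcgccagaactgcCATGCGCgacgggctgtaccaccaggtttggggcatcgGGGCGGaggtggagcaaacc
Cyp1a1 (chr9:57697533-57697612, plus strand): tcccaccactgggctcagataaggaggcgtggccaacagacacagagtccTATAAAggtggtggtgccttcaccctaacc
Car4 (chr11:84957674-84957753, plus strand): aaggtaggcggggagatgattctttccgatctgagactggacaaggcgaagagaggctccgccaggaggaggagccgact
Lrp11 held 3 and Bex1 2 copies of the GC box GGGCGG, which reads CCGCCC on the other strand, Mthfd2 held 2 copies of the CCAAT box in opposite orientations (read as ATTGG and as CCAAT), Kpna2 held 1, and Celsr3 held GCGCATG, written CATGCGC on this strand, with 1 GC box. Cyp1a1 held a TATA box with the letters TATAAA 30 bases before the start, and the window of Car4 held none of the searched letters.

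Over whole promoters the rises and falls differed in base composition and in these letters. 10 motifs were searched on both strands, each counted by itself whether or not it overlapped another, and all of them are given with their shares. The CCAAT box was in 39 of 66 promoters of rises (59.1%), 27 of 66 of falls (40.9%) and 38.6% of all 11791. The GC box GGGCGG was in 60.6%, 36.4% and 54.3% of the same sets, and the TATA box TATAAA in 6.1%, 21.2% and 10.2%. The letters GCGCATG, part of the site of the factor NRF1, was in 9 promoters of rises (13.6%), 0 of falls and 5.8% of all, and TGACGTC, the cyclic AMP response element, in 6 (9.1%), 0 and 4.7%. The E-box letters CACGTG (6.1% of rises and 6.1% of falls against 9.0% of all) and CAGCTG (15.2%, 10.6% and 16.1%) and the ETS-type CCGGAAG (7.6%, 3.0% and 14.1%) stood at lower shares among these rises than among all promoters. The E2F-type letters TTTCCCG were in 6.1%, 0% and 5.0%, and TTTGGCG in 4.5%, 6.1% and 2.2%. The median promoter of a rise held 20 CpG pairs and 58.7% G or C, that of a fall 8.5 and 54.3%, and that of all genes 17 and 58.7%. The rises here include the classic lists, and a match to a few letters is not evidence of binding.

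More than 1 in 2 measured members of both chromatin lists were called higher in the tumours. Of the 27 measured members of the list histone and DNA modifying enzymes, 17 were called higher, 3 lower and 7 neither (median change 0.81). Uhrf1, which brings the maintenance methyltransferase to new DNA, was 6.98 and 6.79 in the lungs, 9.58, 10.70 and 11.53 in the tumours (13.2-fold, change 3.72 ± 0.38, adjusted p = 3.13e-06), and that enzyme, Dnmt1, was 9.45 and 9.57 in the lungs and 11.46, 12.04 and 12.40 in the tumours (5.57-fold). Both stood above lung in every tumour. The Polycomb methyltransferase Ezh2 rose by 7.54-fold, while Hdac7, a class II deacetylase of endothelium and lymphocytes, fell by 2.45-fold. The list histone chaperones and chromatin remodellers had 16 of 22 measured members called higher, 1 lower and 5 neither, with a median change of 1.00. Chaf1b, of the complex that places histones on replicated DNA, was 9.87, 10.16 and 10.67 in the tumours against 5.93 and 6.17 in the lungs (18.4-fold, change 4.20 ± 0.18, adjusted p = 9.48e-10). The replication-linked helicase Hells (13.5-fold) and the chaperone Asf1b (10.1-fold) rose with it. Smarca2, an ATPase of the BAF remodelling complex, went the other way: it was 10.97 and 11.32 in the lungs, 6.53, 8.30 and 9.20 in the tumours, 7.59-fold lower without overlap (change -2.92 ± 0.49, adjusted p = 0.000332). Once the Gapdh covariate was added, the calls of Ezh2 and Smarca2 ended. List members then called were 3 higher and 1 lower for modifying enzymes and 5 higher and 0 lower for chaperones and remodellers. Leaving out 1 array changed a count to 10 higher for modifying enzymes without normal lung 2.

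Every measured member of the list of transport through the nuclear envelope was called higher, as in the classic cell-cycle list. In the list nuclear pore and nuclear transport, 21 members were called higher and 0 lower of 21 measured (median change 1.05). The mean log2 level of its members was 9.26 and 9.29 in the lungs and 10.13, 10.52 and 10.91 in the tumours. Ranbp1, a partner of the GTPase Ran, was 10.12 and 10.46 in the lungs and 12.15, 12.73 and 12.92 in the tumours (5.06-fold, change 2.34 ± 0.19, adjusted p = 3.12e-07), and Rcc1, which loads Ran with GTP, was 8.97, 9.61 and 11.12 in the tumours against 7.69 and 7.25 in the lungs (4.84-fold). The importin Kpna2, an adaptor for nuclear localisation signals, stood at 10.52 and 10.21 in lung and 12.22, 12.40 and 13.04 in the tumours (4.48-fold). No tumour overlapped a lung for these genes. Calls among the list pre-mRNA splicing factors numbered 18 higher and 0 lower over 26 measured members, and the median change was 0.69. Lsm2, of the U6 snRNP, was 5.75 and 6.13 in the lungs, 7.25, 8.09 and 9.28 in the tumours (4.79-fold), and Sf3a3 (3.23-fold) and U2af1 (2.87-fold), which help to define the branch point and the 3' splice site, were 1.69 ± 0.27 and 1.52 ± 0.23 higher in log2. Sf3b1, the core branch-point factor, overlapped between the groups (0.03 ± 0.14, adjusted p = 0.899). Under the Gapdh covariate the call of Ranbp1 held and the others named here ended. It left calls of 3 higher and 0 lower for nuclear transport and 0 higher and 0 lower for splicing. Calls ended with the actin covariate for Lsm2. Removing 1 array changed counts to 13 higher for nuclear transport without normal lung 2 and 10 higher for splicing without either lung.

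Most repair and centrosome genes rose, with exceptions in both lists. Of the 22 measured members of the list base excision and mismatch repair, 16 were called higher, 1 lower and 5 neither (median change 0.91). Ung, which removes uracil from DNA, was 5.95 and 6.08 in the lungs and 8.50, 9.52 and 10.31 in the tumours (10.5-fold, change 3.39 ± 0.37, adjusted p = 5.62e-06). Exo1, the exonuclease of mismatch repair, was 7.40, 8.48 and 9.32 in the tumours against 4.83 and 4.48 in the lungs (at least 10.3-fold), and the glycosylase Neil3 rose by 9.15-fold. In all 3 genes the lowest tumour stood more than 2 log2 units above the higher lung. Nthl1, a glycosylase for oxidised pyrimidines, fell by 1.57-fold. The list centrosome and centriole genes had 17 of 30 measured members called higher, 2 lower and 11 neither, with a median change of 0.88. Stil, needed to start a new centriole, was 4.96 and 5.31 in the lungs, 8.61, 9.26 and 10.10 in the tumours (17.7-fold, change 4.14 ± 0.28, adjusted p = 6.22e-08). Cep55, which acts at the midbody, rose by 23-fold and the gamma tubulin Tubg1 by 7.21-fold, and Pcnt, the pericentrin scaffold, was 9.64 and 9.77 in the lungs and 8.51, 8.80 and 9.23 in the tumours (1.79-fold lower). Cetn2, a centrin also found at the base of cilia, overlapped (-0.22 ± 0.19, adjusted p = 0.423). With the Gapdh term in the fit the calls of Nthl1 and Pcnt ended. The calls left were 5 higher and 0 lower for repair and 6 higher and 0 lower for centrosome.

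Folate, serine and nucleotide synthesis held a large single rise. In the list one-carbon, serine and nucleotide synthesis, 15 members were called higher and 4 lower of 27 measured (median change 0.92). Mthfd2, the mitochondrial enzyme that oxidises methylene-folate, was 10.22, 10.94 and 11.42 in the tumours against 6.03 and 6.28 in the lungs. All 10 tumours lay at least 3 log2 units above both lungs, and the rise was 26.2-fold (change 4.71 ± 0.24, adjusted p = 3.85e-09). Psat1, of serine synthesis, was 7.09 and 7.20 in the lungs, 8.79, 9.74 and 10.86 in the tumours (6.37-fold), and Aldh1l2, the mitochondrial formyl-folate dehydrogenase, rose by 4.66-fold. Of the 4 members called lower, Mthfd1, the cytosolic folate enzyme of several activities, was 11.00 and 11.35 in the lungs and 9.47, 9.95 and 10.32 in the tumours (2.36-fold lower, change -1.24 ± 0.18, adjusted p = 8.52e-05), and Aldh1l1, the cytosolic formyl-folate dehydrogenase, was 5.27, 6.14 and 7.34 in the tumours against 8.19 and 8.59 in the lungs (4.82-fold lower). The adenosine kinase Adk was lower by 2.08-fold as well. Paics, an enzyme of purine synthesis, overlapped (0.45 ± 0.21, adjusted p = 0.117). In the fit with the Gapdh covariate the calls of Mthfd2, Aldh1l2 and Adk held and the others named here ended. Members still called were 3 higher and 1 lower. Calls ended without probe sets shared between transcripts for Adk.

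In the lists of protein synthesis and breakdown more members were called higher than lower, with medians under 1. Calls within the list ribosome biogenesis factors numbered 14 higher and 0 lower over 24 measured members, and the median change was 0.78. Nop58, a core protein of box C/D snoRNPs, was 9.07 and 9.05 in the lungs, 10.50, 11.47 and 12.12 in the tumours (5.18-fold), and its partner Nop56 rose by 3.95-fold. Of the 22 measured members of the list mitochondrial ribosome, 13 were called higher, 0 lower and 9 neither (median change 0.56). Its highest rise, Mrps22 of the small subunit, was 8.21 and 8.52 in the lungs and 9.42, 9.91 and 10.10 in the tumours (2.79-fold). The list tRNA synthetases had 10 of 19 measured members called higher, 0 lower and 9 neither, with a median change of 0.72. The arginyl enzyme Rars led with a 2.55-fold rise, and the lysyl enzyme Kars followed with 2.29-fold. None of these groups had a member called lower. In the list proteasome, 17 members were called higher and 1 lower of 25 measured (median change 0.66). Psmb7, a catalytic subunit, was 9.74, 10.96 and 11.33 in the tumours against 8.50 and 8.95 in the lungs (3.93-fold, change 1.98 ± 0.39, adjusted p = 0.00117). Psmb2 (2.73-fold) and Psma7 (2.27-fold), of the same core, rose, and the member called lower, the immunoproteasome subunit Psmb10, overlapped between groups (-0.90 ± 0.33, adjusted p = 0.0495). Calls in the list chaperones and heat shock proteins numbered 12 higher and 1 lower over 25 measured members, and the median change was 0.40. Subunits of the cytosolic chaperonin were its highest rises: Cct7 was 11.29 and 11.33 in the lungs, 12.28, 12.62 and 12.97 in the tumours (2.41-fold), Cct5 rose by 2.25-fold and Tcp1 by 2.14-fold, whereas the main cytosolic Hsp90aa1 overlapped (0.14 ± 0.18, adjusted p = 0.621). That value is of its brightest probe set, and 2 of the 5 probe sets of Hsp90aa1 were called higher. Once the Gapdh covariate was added, the call of Nop56 held and the others named here ended, and the change of Psmb7 turned to -0.78. List members then called were 1 higher and 0 lower for ribosome biogenesis factors, 1 higher and 0 lower for mitochondrial ribosome, 0 higher and 0 lower for tRNA synthetases, 0 higher and 0 lower for proteasome and 0 higher and 0 lower for chaperones and heat shock proteins. Calls ended without either lung or tumour 1, 2, 3, 4, 8, 9 or 10 for Psmb10 (adjusted p = 0.0553 to 0.326). They also ended with the 12 arrays fitted alone for Psmb10, without probe sets shared between transcripts for Psmb10, with the actin covariate for Psmb10, Psmb7 and Tcp1. Removing 1 array changed counts to 8 higher for ribosome biogenesis factors without normal lung 1, 8 higher for mitochondrial ribosome without normal lung 1, 7 higher for mitochondrial ribosome without normal lung 2 and 5 higher for chaperones and heat shock proteins without normal lung 1.

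Energy and lipid genes were called in both directions. Of the 25 measured members of the list respiratory chain subunits, 10 were called higher, 4 lower and 11 neither (median change 0.33). The highest rises, Sdhb of succinate dehydrogenase (2.26-fold), Atp5o (2.15-fold) and Atp5g1 (2.00-fold) of the ATP synthase, were small. Heart and muscle isoforms of cytochrome oxidase were among the falls. Cox8b was 8.85 and 8.85 in the lungs and 5.71, 5.94 and 6.59 in the tumours (7.29-fold lower, change -2.87 ± 0.19, adjusted p = 5.24e-08) and Cox7a1 was 5.51, 6.05 and 6.84 in the tumours against 9.18 and 8.51 in the lungs (6.84-fold lower), both without overlap and beside the fall of the cardiac list given above. The list cholesterol synthesis had 2 of 17 measured members called higher, 1 lower and 14 neither, with a median change of -0.19. Both shares, 11.8% and 5.9%, were below those of all genes (18.3% and 20.5%). Hmgcs1, which makes HMG-CoA, was 12.17 and 11.42 in the lungs, 10.26, 10.82 and 11.36 in the tumours (1.95-fold lower), and Fdft1, which makes squalene, overlapped (0.24 ± 0.29, adjusted p = 0.591). A less bright probe set of Fdft1, 1 of its 4, was called higher. In the list fatty acid and surfactant lipid metabolism, 1 member was called higher and 11 lower of 27 measured (median change -0.59). Cd36, the fatty acid translocase of capillaries and macrophages, was 13.02 and 13.35 in the lungs and 8.01, 9.79 and 10.63 in the tumours (13.4-fold lower), and Chpt1, of phosphatidylcholine synthesis, was 7.42, 8.02 and 8.59 in the tumours against 10.91 and 11.09 in the lungs (7.82-fold lower, change -2.97 ± 0.27, adjusted p = 8.63e-07). Pparg, a nuclear receptor for fatty acids, fell by 3.30-fold, and the fatty acid binder Fabp5 overlapped at a high level (0.55 ± 0.26, adjusted p = 0.135). The other of the 2 Fabp5 probe sets was called higher. Under the Gapdh covariate the calls of Cox8b and Cox7a1 held and the others named here ended. It left calls of 1 higher and 2 lower for respiratory chain subunits, 1 higher and 0 lower for cholesterol synthesis and 0 higher and 2 lower for fatty acid and surfactant lipid metabolism. Calls ended without normal lung 1 for Hmgcs1 (adjusted p = 0.224). They also ended without probe sets shared between transcripts for Atp5g1, with the actin covariate for Hmgcs1. Single arrays changed a count to 6 lower for fatty acid and surfactant lipid metabolism without normal lung 2.

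**Figure D2:**
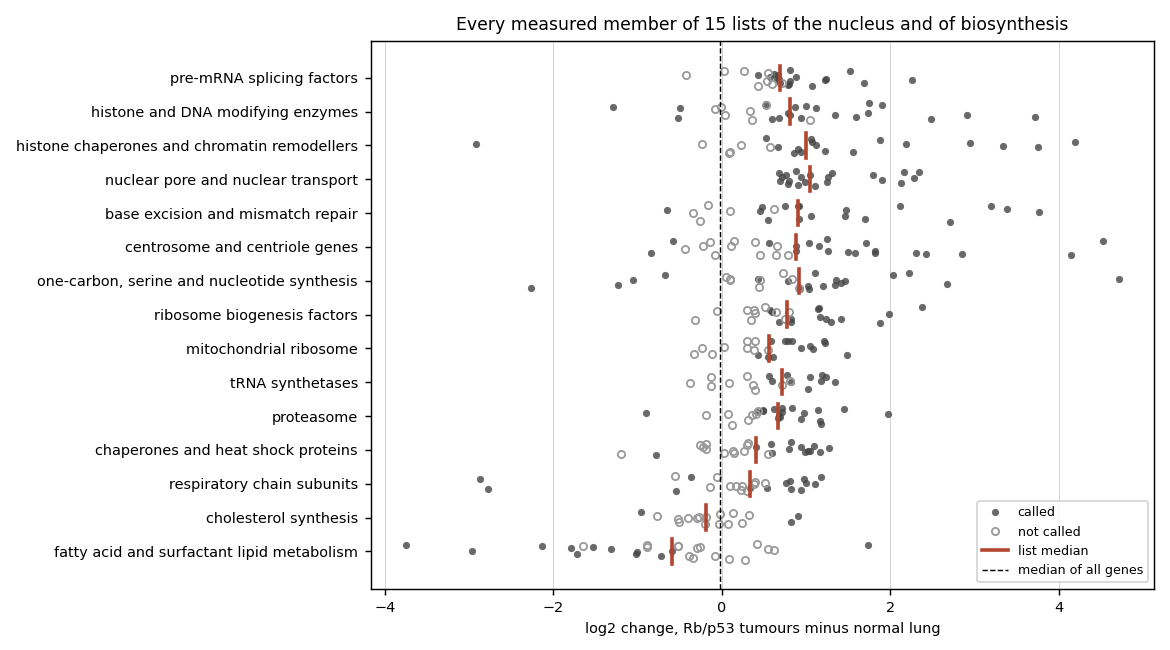
Log2 change of every measured member of 15 lists of the nucleus, biosynthesis and metabolism. Filled circles were called, open circles were not, red bars are list medians and the dashed line is the median of all genes (-0.03); all 21 nuclear transport members lie to the right of it, and the cholesterol and fatty acid lists centre to its left.

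Several ion channels of excitable cells rose. Calls among the list voltage-gated sodium and calcium channels numbered 11 higher and 2 lower over 20 measured members, and the median change was 1.93. Cacna1h, a T-type calcium channel that opens near resting potential, was 5.29 and 5.40 in the lungs, 8.71, 10.11 and 10.83 in the tumours (26-fold, change 4.70 ± 0.41, adjusted p = 6.9e-07). The sodium channel Scn9a, known from pain-sensing neurons, was 3.63 and 4.38 in the lungs and 6.76, 9.44 and 10.31 in the tumours (at least 17.7-fold), and the auxiliary subunit Cacna2d3 rose by at least 10.7-fold. Scn3b, a sodium channel beta subunit, was 6.08, 7.88 and 8.87 in the tumours against 10.63 and 10.38 in the lungs and fell by 7.04-fold, as did the L-type channel Cacna1d (7.06-fold). Of the 21 measured members of the list potassium channels, 3 were called higher, 3 lower and 15 neither (median change 0.16). The shares called in each direction were below those of all genes. Kcnc1, a fast-delayed rectifier, was 5.09 and 5.78 in the lungs, 8.70, 9.40 and 10.14 in the tumours (15.6-fold, change 3.96 ± 0.32, adjusted p = 2.57e-07), the leak channel Kcnk1 rose by 5.87-fold and the ERG channel Kcnh2 by 5.12-fold, whereas the inward rectifier Kcnj15 fell by 9.57-fold. The list glutamate, GABA and glycine receptors had 2 of 22 measured members called higher, 1 lower and 19 neither, with a median change of -0.02. Both shares, 9.1% and 4.5%, were below those of all genes (18.3% and 20.5%). The tumour mean of 7 members and the lung mean of 8 lay at or under the floor. Glrb, the beta subunit of the glycine receptor, was 7.46 and 6.07 in the lungs and 7.90, 8.88 and 9.78 in the tumours (4.64-fold), and Gria2 and Gria1, subunits of AMPA receptors, moved apart: Gria2 was 6.20, 8.32 and 10.63 in the tumours against 4.97 and 5.56 in the lungs and Gria1 was 7.48 and 7.92 in the lungs, 4.24, 4.71 and 7.13 in the tumours (adjusted p = 0.0131 and 0.0168). With the Gapdh term in the fit the calls of Cacna1h, Cacna2d3, Kcnc1, Kcnk1 and Kcnh2 held and the others named here ended. The calls left were 4 higher and 0 lower for voltage-gated sodium and calcium channels, 3 higher and 0 lower for potassium channels and 0 higher and 0 lower for glutamate, GABA and glycine receptors. Calls ended without either lung for Gria2 (adjusted p = 0.065 to 0.136) and Gria1 (adjusted p = 0.0824 to 0.145). They also ended with the actin covariate for Gria1, Gria2 and Scn3b.

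RNA-binding proteins of neurons rose in part of their list. In the list neuronal RNA-binding proteins, 12 members were called higher and 2 lower of 27 measured (median change 1.24). Elavl4, which stabilises neuronal messages, was 5.56 and 5.17 in the lungs and 9.59, 10.70 and 11.76 in the tumours (40.1-fold, change 5.33 ± 0.42, adjusted p = 2.58e-07), and the splicing regulator Celf4 was 10.36, 11.44 and 11.74 in the tumours against 6.72 and 5.67 in the lungs (34.1-fold). Its relative Elavl2 was 4.25 and 4.23 in the lungs, 5.67, 10.96 and 12.62 in the tumours, with 1 tumour close to the lungs, and rose by at least 45.4-fold. Ptbp1, the splicing repressor of non-neural cells, was kept (11.44 and 11.40 in the lungs and 11.34, 11.82 and 12.37 in the tumours), with overlap and no call (adjusted p = 0.101). Calls within the list RGS, adenylate cyclase and cyclic nucleotide genes numbered 12 higher and 15 lower over 37 measured members, and the median change was 0.36. Rises and falls were both more frequent here than over all genes. Adcy1, a calcium-stimulated adenylate cyclase of brain, was 9.74, 10.69 and 11.40 in the tumours against 6.50 and 5.66 in the lungs (22.6-fold), and the G protein regulators Rgs17 (21.4-fold) and Rgs7 (17.3-fold) rose. The anchoring protein Akap5 was 11.59 and 11.58 in the lungs, 5.80, 7.75 and 8.32 in the tumours (18.7-fold lower), and the natriuretic peptide receptor Npr3 (16.1-fold) and the nitric oxide sensor subunit Gucy1a1 (10.5-fold) fell. Of the 26 measured members of the list G protein-coupled receptors, 3 were called higher, 16 lower and 7 neither (median change -0.81). Drd2, the dopamine receptor, was 5.64 and 4.98 in the lungs and 6.54, 7.83 and 8.26 in the tumours (5.33-fold), and the somatostatin receptor Sstr2 rose by 3.26-fold. Among the receptors called lower, Calcrl, the receptor for adrenomedullin, was 6.74, 8.83 and 10.19 in the tumours against 12.94 and 13.23 in the lungs (22.4-fold lower), and Ednrb (11.3-fold) and S1pr3 (9.81-fold) followed. In the fit with the Gapdh covariate the calls of Elavl4, Celf4, Adcy1, Rgs17, Rgs7, Akap5 and Drd2 held and the others named here ended. Members still called were 6 higher and 0 lower for neuronal RNA-binding proteins, 3 higher and 3 lower for RGS, adenylate cyclase and cyclic nucleotide genes and 1 higher and 0 lower for G protein-coupled receptors. Calls ended without probe sets shared between transcripts for Calcrl, with the actin covariate for Elavl2 and Sstr2. Removing 1 array changed a count to 7 higher for RGS, adenylate cyclase and cyclic nucleotide genes without normal lung 1.

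Adhesion and guidance genes were called in both directions. The list cadherins, protocadherins and contactins had 10 of 29 measured members called higher, 7 lower and 12 neither, with a median change of 0.34. These shares were 34.5% and 24.1%, beside 18.3% and 20.5% over all genes, so the share called lower was near that of all genes. The tumour mean of 4 members and the lung mean of 8 lay at or under the floor. With such means raised to the floor the median change was 0.11. Cdh2, the neural cadherin, was 7.01 and 7.09 in the lungs, 10.64, 10.90 and 11.91 in the tumours (16.2-fold, change 4.02 ± 0.29, adjusted p = 9.94e-08), while Cdh1, the epithelial cadherin, was 13.08 and 12.61 in the lungs and 12.63, 12.94 and 13.48 in the tumours, with overlap (change 0.11 ± 0.18, adjusted p = 0.695). Celsr3, an atypical cadherin of axon tracts, was 8.44, 9.07 and 9.39 in the tumours against 4.93 and 4.70 in the lungs (at least 15.6-fold). Cdh5, the endothelial cadherin, fell by 13.3-fold, and Pcdh18 by 8.25-fold. In the list axon guidance ligands and receptors, 5 members were called higher (14.7%) and 19 lower (55.9%) of 34 measured (median change -1.22). Among ligands, the secreted semaphorins Sema3c and Sema3a fell (31.1-fold and 13.5-fold), and Efnb2, an ephrin of arteries, was 12.26 and 12.24 in the lungs, 8.47, 8.96 and 9.65 in the tumours (9.44-fold lower). A further ligand, the ephrin Efna5, rose by 4.33-fold. Of receptors, Robo1, which binds Slit ligands, was 7.26 and 7.99 in the lungs and 9.95, 11.04 and 12.59 in the tumours (11.4-fold higher). Ntn4, a netrin of basement membranes, overlapped (0.81 ± 0.31, adjusted p = 0.0594). Once the Gapdh covariate was added, the calls of Cdh5, Sema3c, Robo1 and Efna5 ended. List members then called were 2 higher and 2 lower for cadherins, protocadherins and contactins and 1 higher and 3 lower for axon guidance ligands and receptors. Single arrays changed counts to 6 higher for cadherins, protocadherins and contactins without either lung and 3 higher for axon guidance ligands and receptors without either lung.

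Among cell junction genes rises and falls were both frequent. Calls in the list claudins, keratins and cell junctions numbered 10 higher and 14 lower over 36 measured members, and the median change was -0.47. Epcam, an adhesion molecule of epithelium, was 13.33, 13.65 and 13.85 in the tumours against 11.27 and 11.37 in the lungs (4.97-fold, change 2.31 ± 0.14, adjusted p = 1.99e-08); all 10 tumours lay between 13.33 and 13.85. Dsc2, a desmosomal cadherin, was 6.71 and 6.14 in the lungs, 9.20, 9.88 and 10.21 in the tumours (10.5-fold), and the embryonic claudin Cldn6 was 5.72 and 5.98 in the lungs and 7.33, 8.56 and 9.77 in the tumours (6.29-fold). The desmosomal plakin Dsp overlapped (0.24 ± 0.28, adjusted p = 0.573). Cldn5, the endothelial claudin, was 6.64, 8.45 and 9.76 in the tumours against 12.91 and 12.84 in the lungs (22.6-fold lower), and the endothelial connexin Gja4 (10.1-fold) and the adhesion molecule Esam (7.34-fold) fell. The mean level of the endothelial marker list was 11.17 and 11.75 in the lungs and 7.11 to 8.98 in the tumours. Cldn5 and Esam are members of that list, so its mean is not separate from their falls. The part of endothelial content in these falls was not tested. Under the Gapdh covariate the calls of Epcam, Dsc2 and Gja4 held and the others named here ended, and the change of Cldn6 turned to -0.07. It left calls of 2 higher and 2 lower. Calls ended with the actin covariate for Cldn6. Leaving out 1 array changed a count to 9 lower without either lung.

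Transcription factors were called in both directions. Of the 34 measured members of the list homeodomain and patterning factors, 8 were called higher, 4 lower and 22 neither (median change 0.25). Its shares called were 23.5% and 11.8%, beside 18.3% and 20.5% over all genes. Prox1, a factor of liver, lymphatic and neural development, was 4.58 and 4.58 in the lungs, 9.06, 9.68 and 10.27 in the tumours (at least 24.9-fold, change 5.11 ± 0.27, adjusted p = 4.54e-09). Meis2, a cofactor of Hox proteins, was 7.78 and 8.47 in the lungs and 10.85, 11.89 and 12.61 in the tumours (13.3-fold higher), and its relative Meis1 was 5.48, 6.32 and 7.34 in the tumours against 9.21 and 10.06 in the lungs (9.85-fold lower). Onecut2, of liver and neuronal lineages, rose by at least 11.6-fold and Hoxa5, which patterns lung, fell by 4.02-fold. Hoxb5 ran from 7.28 to 11.78 in the tumours against 8.33 and 8.76 in the lungs and was not called (adjusted p = 0.215). The list forkhead, GATA, KLF and T-box factors had 3 of 32 measured members called higher, 23 lower and 6 neither, with a median change of -2.31. This was the transcription factor list with the lower median. Sox7 and Tcf21, given next, lie outside the families in the list's name. Sox7, of endothelium, was 10.79 and 11.14 in the lungs, 5.68, 6.26 and 7.51 in the tumours (21.3-fold lower, change -4.42 ± 0.42, adjusted p = 1.73e-06), Tbx2, of lung mesenchyme, was 10.19 and 10.66 in the lungs and 5.24, 6.31 and 7.17 in the tumours (18.3-fold lower) and Tcf21, of lung fibroblasts, fell by 20.9-fold. Foxa2, the pioneer factor of endoderm, was 12.15, 12.75 and 13.11 in the tumours against 11.61 and 10.87 in the lungs and rose by 2.76-fold (change 1.47 ± 0.24, adjusted p = 0.000262), and Foxa1 was higher by 2.36-fold with overlap (adjusted p = 0.0349). With the Gapdh term in the fit the calls of Prox1, Hoxa5, Sox7, Tbx2 and Foxa2 held and the others named here ended. The calls left were 2 higher and 2 lower for homeodomain and patterning factors and 1 higher and 6 lower for forkhead, GATA, KLF and T-box factors. Calls ended without either lung for Foxa1 (adjusted p = 0.146 to 0.196). They also ended with the 12 arrays fitted alone for Foxa1, with the actin covariate for Foxa1 and Onecut2. Removing 1 array changed a count to 4 higher for homeodomain and patterning factors without normal lung 1.

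In growth factor signalling more members were called lower than higher. In the list receptor tyrosine kinases and ligands, 5 members were called higher and 18 lower of 38 measured (median change -0.85). Ret, the receptor for the GDNF family, was 5.59 and 5.96 in the lungs, 10.39, 11.07 and 11.75 in the tumours (41.8-fold, change 5.38 ± 0.26, adjusted p = 2.7e-09), and the intracellular FGF homologues Fgf13 (36.1-fold) and Fgf14 (at least 19.2-fold), which bind sodium channels, rose. Tek, the angiopoietin receptor of endothelium, was 11.59 and 12.16 in the lungs and 5.40, 6.92 and 9.93 in the tumours (25.9-fold lower), and Fgf1 (16.2-fold) and the IGF-binding Igfbp6 (18.8-fold) fell, whereas Igfbp5 overlapped at a high level (0.14 ± 0.39, adjusted p = 0.835). Calls among the list Wnt ligands, receptors and antagonists numbered 2 higher and 19 lower over 33 measured members, and the median change was -1.17. The nuclear effector Tcf7l2 was 4.76, 5.62 and 6.60 in the tumours against 8.57 and 8.72 in the lungs (7.61-fold lower), and the receptors Fzd4 (7.46-fold) and Fzd7 (6.63-fold) fell. Ctnnb1, the beta-catenin through which they signal, was 13.90 and 14.01 in the lungs, 13.54, 13.89 and 14.05 in the tumours, without a call (-0.08 ± 0.12, adjusted p = 0.671). Lgr4, a receptor for R-spondins, rose by 3.50-fold. In the fit with the Gapdh covariate the calls of Ret, Fgf13 and Fgf14 held and the others named here ended. Members still called were 3 higher and 2 lower for receptor tyrosine kinases and ligands and 0 higher and 2 lower for Wnt ligands, receptors and antagonists. Calls ended without normal lung 1 for Lgr4 (adjusted p = 0.191).

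The TGF-beta and BMP list had a median near that of all genes, but its calls were mostly lower. Its shares called higher and lower were 5.6% and 41.7%, beside 18.3% and 20.5% over all genes. Of the 36 measured members of the list TGF-beta and BMP pathway, 2 were called higher, 15 lower and 19 neither (median change 0.02). The ligand Bmp6 was 10.22 and 11.19 in the lungs and 5.34, 6.38 and 6.95 in the tumours (22-fold lower), the endothelial receptor Acvrl1 was 5.75, 6.01 and 7.09 in the tumours against 10.39 and 10.85 in the lungs (21.1-fold lower) and the inhibitory Smad6 was 11.29 and 11.90 in the lungs, 5.60, 7.39 and 8.12 in the tumours (20.4-fold lower). All 3 were without overlap. Smad4, the shared mediator, was 11.79 and 11.83 in the lungs and 10.90, 11.90 and 12.13 in the tumours and not called (0.01 ± 0.24, adjusted p = 0.99). Id4, an inhibitor of helix-loop-helix factors, was 1 of the 2 members called higher, at 12.58, 13.63 and 14.29 in the tumours against 9.70 and 10.33 in the lungs (12-fold higher, change 3.59 ± 0.31, adjusted p = 6.32e-07). Once the Gapdh covariate was added, the call of Smad6 ended. List members then called were 1 higher and 5 lower.

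In both lists of enzymes that clear foreign compounds, more than 1 in 2 measured members were called lower. No member of the cytochrome list was called higher. The list cytochromes P450 and flavin oxidases had 0 of 26 measured members called higher, 20 lower and 6 neither, with a median change of -3.13. Beside Cyp1a1 and Aox3, the flavin oxidase Fmo1 was 12.35 and 12.65 in the lungs, 6.18, 6.98 and 9.72 in the tumours (28.2-fold lower), and Cyp4b1, a P450 of club cells, fell by 24.4-fold. Aldh1a7, an aldehyde dehydrogenase, stayed high (13.00 and 12.45 in the lungs and 12.35, 12.99 and 13.48 in the tumours, adjusted p = 0.514). In the list conjugation and antioxidant enzymes, 3 members were called higher and 19 lower of 33 measured (median change -1.74). Ces1f, a carboxylesterase, was 4.13, 4.38 and 4.92 in the tumours against 10.42 and 8.82 in the lungs (at least 23.8-fold lower, change -5.21 ± 0.37, adjusted p = 9.15e-08), and the glutathione transferase Gsta3 fell by 24-fold. Other members rose: Gstm5, a mu-class glutathione transferase, was 8.55 and 9.19 in the lungs, 11.11, 12.38 and 13.07 in the tumours (10.9-fold higher), Prdx4, the peroxiredoxin of the endoplasmic reticulum, was 10.16 and 10.56 in the lungs and 11.99, 12.41 and 12.86 in the tumours (4.22-fold), and the metallothionein Mt2 rose by 4.78-fold. Sod1 overlapped (-0.22 ± 0.15, adjusted p = 0.292). Club and ciliated cell markers averaged 11.61 and 12.00 in the lungs and 8.17 to 9.36 in the tumours. Cyp4b1 and Aldh1a7 are among these markers, so that mean is not separate from them. The part of club and ciliated cell content was not tested. Under the Gapdh covariate the call of Ces1f held and the others named here ended. It left calls of 0 higher and 3 lower for cytochromes P450 and flavin oxidases and 0 higher and 3 lower for conjugation and antioxidant enzymes.

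Most transport genes of the lung surface were called lower, and nutrient carriers were called in both directions. Calls within the list water and ion transport of lung epithelium numbered 2 higher and 18 lower over 27 measured members, and the median change was -2.45. Clic5, a chloride channel protein of alveolar type 1 cells and capillaries, was 6.02, 7.60 and 9.39 in the tumours against 11.55 and 12.59 in the lungs (19-fold lower), whereas Atp1b1, a subunit of the sodium pump, overlapped (-0.29 ± 0.24, adjusted p = 0.39). Fxyd6, another modulator of that pump, was 7.77 and 7.75 in the lungs, 10.66, 11.34 and 11.88 in the tumours (11.6-fold higher, change 3.53 ± 0.25, adjusted p = 8.8e-08). Of the 31 measured members of the list solute carriers of amino acids, glucose and metals, 7 were called higher, 8 lower and 16 neither (median change -0.07). The shares called, 22.6% and 25.8%, stood near those of all genes (18.3% and 20.5%). Slc38a1, a glutamine importer, was 9.86 and 9.34 in the lungs and 11.45, 11.78 and 12.32 in the tumours (4.72-fold, change 2.24 ± 0.19, adjusted p = 4.76e-07), and Slc6a17 (3.04-fold), a vesicular amino acid carrier, and Slc7a1 (2.89-fold), an arginine importer, rose. The nucleobase carrier Slc43a3 (8.40-fold), the zinc importer Slc39a8 (6.49-fold) and the glutamate importer Slc1a3 (4.99-fold) fell, and the taurine carrier Slc6a6 overlapped (-0.07 ± 0.19, adjusted p = 0.838). With the Gapdh term in the fit the calls of Fxyd6, Slc38a1 and Slc6a17 held and the others named here ended. The calls left were 1 higher and 2 lower for water and ion transport of lung epithelium and 2 higher and 1 lower for solute carriers of amino acids, glucose and metals. Single arrays changed a count to 4 higher for solute carriers of amino acids, glucose and metals without normal lung 2.

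Matrix, protease and integrin genes were called lower more than higher, and many members were not called. The list collagens and basement membrane had 2 of 35 measured members called higher, 22 lower and 11 neither, with a median change of -1.60. Col4a4 and Col4a5, chains of specialised basement membranes, were 21.5-fold and 17.3-fold lower, and Col4a4 was 6.14, 7.27 and 8.64 in the tumours against 11.90 and 11.83 in the lungs. Col8a1, a short-chain collagen of vessels and growing tissue, was 8.33 and 8.75 in the lungs, 12.56, 13.15 and 13.73 in the tumours (25-fold higher, change 4.64 ± 0.26, adjusted p = 8.08e-09), and no tumour came within 3 log2 units of a lung. Col18a1, the source of endostatin, rose by 3.59-fold, and the fibrillar Col1a2 was 11.95 and 12.41 in the lungs and 11.18, 11.80 and 12.88 in the tumours, without a call (-0.24 ± 0.36, adjusted p = 0.662). In the list elastic fibre and matrix glycoproteins, 1 member was called higher and 17 lower of 33 measured (median change -1.26). The small proteoglycan Ogn was 5.80, 8.30 and 9.70 in the tumours against 12.43 and 12.97 in the lungs (23.2-fold lower), Tnxb, a tenascin of loose connective tissue, fell by 12.4-fold and the matricellular Ccn1 by 7.98-fold, whereas Mgp, which keeps matrix from calcifying, overlapped (-0.69 ± 0.35, adjusted p = 0.152). Calls in the list proteases and their inhibitors numbered 5 higher and 14 lower over 37 measured members, and the median change was -0.18. Mmp12, the elastase of macrophages, was 5.45 and 6.36 in the lungs, 8.79, 10.03 and 10.86 in the tumours (16-fold higher, change 4.00 ± 0.44, adjusted p = 6.96e-06), and the protease inhibitor Spint1 rose by 2.44-fold. Timp2 (2.93-fold), Serpinf1 (4.00-fold) and Serpinb1a (4.11-fold), inhibitors of metalloproteases and serine proteases or, for Serpinf1, of vessel growth, fell. Of the 23 measured members of the list integrins, 0 were called higher, 10 lower and 13 neither (median change -0.92). Itga8, of myofibroblasts, was 12.70 and 12.79 in the lungs and 7.02, 8.30 and 9.62 in the tumours (20.6-fold lower), the collagen receptor Itga1 fell by 6.56-fold, and the laminin receptor Itga6 overlapped (-0.12 ± 0.19, adjusted p = 0.695). Fibroblast and smooth muscle markers averaged 10.83 and 10.93 in the lungs and 8.10 to 9.05 in the tumours, and their part was not tested. In the fit with the Gapdh covariate the calls of Col8a1, Tnxb and Itga1 held and the others named here ended. Members still called were 1 higher and 3 lower for collagens and basement membrane, 0 higher and 3 lower for elastic fibre and matrix glycoproteins, 0 higher and 0 lower for proteases and their inhibitors and 0 higher and 1 lower for integrins. Leaving out 1 array changed counts to 9 lower for elastic fibre and matrix glycoproteins without normal lung 2, 2 higher for proteases and their inhibitors without normal lung 1, 3 higher for proteases and their inhibitors without normal lung 2, 9 lower for proteases and their inhibitors without normal lung 1 and 4 lower for proteases and their inhibitors without normal lung 2.

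In the list of vessel genes, all called members were lower. The list caveolae and vascular tone had 0 of 29 measured members called higher, 23 lower and 6 neither, with a median change of -2.62. Cavin2, of the caveolar coat, was 7.28, 8.61 and 10.38 in the tumours against 13.37 and 13.69 in the lungs (27.3-fold lower), and the caveolar protein Cav1 was 13.41 and 13.80 in the lungs, 8.33, 9.72 and 11.34 in the tumours (12.6-fold lower). Apln, the apelin peptide made by sprouting endothelium, was 8.46 and 9.50 in the lungs and 7.07, 8.23 and 8.74 in the tumours, with overlap and no call (adjusted p = 0.0879). In the list nuclear receptors and circadian clock, 0 members were called higher and 14 lower of 41 measured (median change -0.44). Nr1h3, the oxysterol receptor LXR alpha, was 6.26, 6.49 and 6.98 in the tumours against 8.11 and 8.31 in the lungs (3.26-fold lower), and the vitamin D receptor Vdr fell by 2.63-fold. The clock repressor Nr1d2 differed between the lungs themselves (10.83 and 12.43 in the lungs, 11.39, 11.91 and 12.39 in the tumours) and was not called (adjusted p = 0.629). Once the Gapdh covariate was added, none of the gene calls named here held. List members then called were 0 higher and 5 lower for caveolae and vascular tone and 2 higher and 1 lower for nuclear receptors and circadian clock. Calls ended with the actin covariate for Vdr. Removing 1 array changed counts to 9 lower for nuclear receptors and circadian clock without normal lung 1 and 7 lower for nuclear receptors and circadian clock without normal lung 2.

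In the immune lists more members were called lower than higher, and most of the chemokine, complement and pattern receptor members were not called. Over all genes 18.3% were called higher and 20.5% lower. The same shares were 2.1% and 38.3% for chemokines, 13.8% and 31.0% for complement, and 3.4% and 27.6% for pattern receptors. The complement and pattern receptor shares called lower were thus not far above that of all genes. Calls among the list chemokines, cytokines and receptors numbered 1 higher and 18 lower over 47 measured members, and the median change was -0.83. Cxcl13, which attracts B cells, was 8.21 and 8.11 in the lungs and 11.02, 12.94 and 14.36 in the tumours. The lowest tumour stood above both lungs, and the rise was 27.7-fold (change 4.79 ± 0.89, adjusted p = 0.000743), the only called rise of the list. The death ligand Tnfsf10 (13.5-fold) and the TNF receptor relative Tnfrsf19 (14.7-fold) fell, and Cxcl15, a chemokine of lung epithelium, was 7.55, 11.05 and 13.08 in the tumours against 14.05 and 13.99 in the lungs, without overlap but not called (adjusted p = 0.0593). The less bright of the 2 Cxcl15 probe sets was called lower. Of the 29 measured members of the list complement and coagulation, 4 were called higher, 9 lower and 16 neither (median change -0.68). The proteases C1s1 (6.11-fold) and C1ra (5.14-fold) fell. Their recognition partner moved the other way: C1qb was 7.49 and 9.23 in the lungs, 9.66, 10.56 and 11.44 in the tumours (4.53-fold higher, change 2.18 ± 0.44, adjusted p = 0.00142) and C1qc was 7.20 and 8.37 in the lungs and 8.77, 9.69 and 10.57 in the tumours (3.45-fold higher), but the lungs differed from each other by over 1 log2 unit in both. The list pattern receptors and inflammasome had 1 of 29 measured members called higher, 8 lower and 20 neither, with a median change of -0.62. The bacterial sensor Nod1 was 7.16, 7.59 and 8.53 in the tumours against 10.39 and 10.34 in the lungs (6.23-fold lower), Tlr3 fell by 4.94-fold, and the fungal receptor Clec7a overlapped (-0.09 ± 0.54, adjusted p = 0.922). Among immune cell markers the pan-leukocyte Ptprc was 11.97 and 11.37 in the lungs, 8.36, 9.52 and 10.37 in the tumours (4.81-fold lower), Csf1r, the receptor of macrophage growth factor, fell by 4.29-fold, and Cd68, a lysosomal protein of macrophages, was 7.61 and 8.42 in the lungs and 8.81, 9.55 and 10.00 in the tumours (2.74-fold higher, change 1.45 ± 0.35, adjusted p = 0.00451). The immune marker list averaged 8.41 and 8.55 in the lungs and 6.52 to 7.87 in the tumours. That mean includes Ptprc, Csf1r and Cd68, so it is not separate from them. The part of immune cell content was not tested. Under the Gapdh covariate the call of Tnfrsf19 held and the others named here ended, and the change of C1qc turned to -0.64. It left calls of 0 higher and 2 lower for chemokines, cytokines and receptors, 0 higher and 0 lower for complement and coagulation and 0 higher and 1 lower for pattern receptors and inflammasome. Calls ended without normal lung 1 for C1qb (adjusted p = 0.0933), C1qc (adjusted p = 0.141) and Cd68 (adjusted p = 0.135). They also ended with the actin covariate for C1qb, C1qc, Cd68 and Ptprc. Single arrays changed counts to 5 lower for complement and coagulation without normal lung 1 and 5 lower for pattern receptors and inflammasome without normal lung 1.

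Lysosomal and cell death genes were called in both directions. In the list lysosome and autophagy, 5 members were called higher and 9 lower of 32 measured (median change -0.28). These were 15.6% and 28.1% of its members, beside 18.3% and 20.5% over all genes. The membrane proteins Lamp2 (2.41-fold) and Lamp1 (1.72-fold) and the autophagosome marker Map1lc3b (1.81-fold) fell, the cathepsin Ctsz rose (2.13-fold), and the saposin precursor Psap was 12.79, 13.05 and 13.79 in the tumours against 12.87 and 13.06 in the lungs (adjusted p = 0.467). Calls within the list cell death regulators numbered 5 higher (15.6%) and 12 lower (37.5%) over 32 measured members, and the median change was -0.14. The death receptor Fas was 8.69 and 9.56 in the lungs, 5.38, 6.25 and 6.76 in the tumours (7.22-fold lower), and Cflar, which blocks caspase activation at that receptor, was 10.65 and 10.67 in the lungs and 7.34, 8.64 and 9.36 in the tumours (3.98-fold lower). Casp8, the caspase it blocks, overlapped (0.26 ± 0.21, adjusted p = 0.387). Casp2 rose by 2.39-fold and Diablo, which frees caspases from their inhibitors, by 1.85-fold. With the Gapdh term in the fit none of the gene calls named here held. The calls left were 0 higher and 0 lower for lysosome and autophagy and 0 higher and 1 lower for cell death regulators. Calls ended without probe sets shared between transcripts for Lamp2 and Map1lc3b. Leaving out 1 array changed counts to 1 higher for lysosome and autophagy without normal lung 1 and 3 higher for cell death regulators without either lung.

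**Figure D3:**
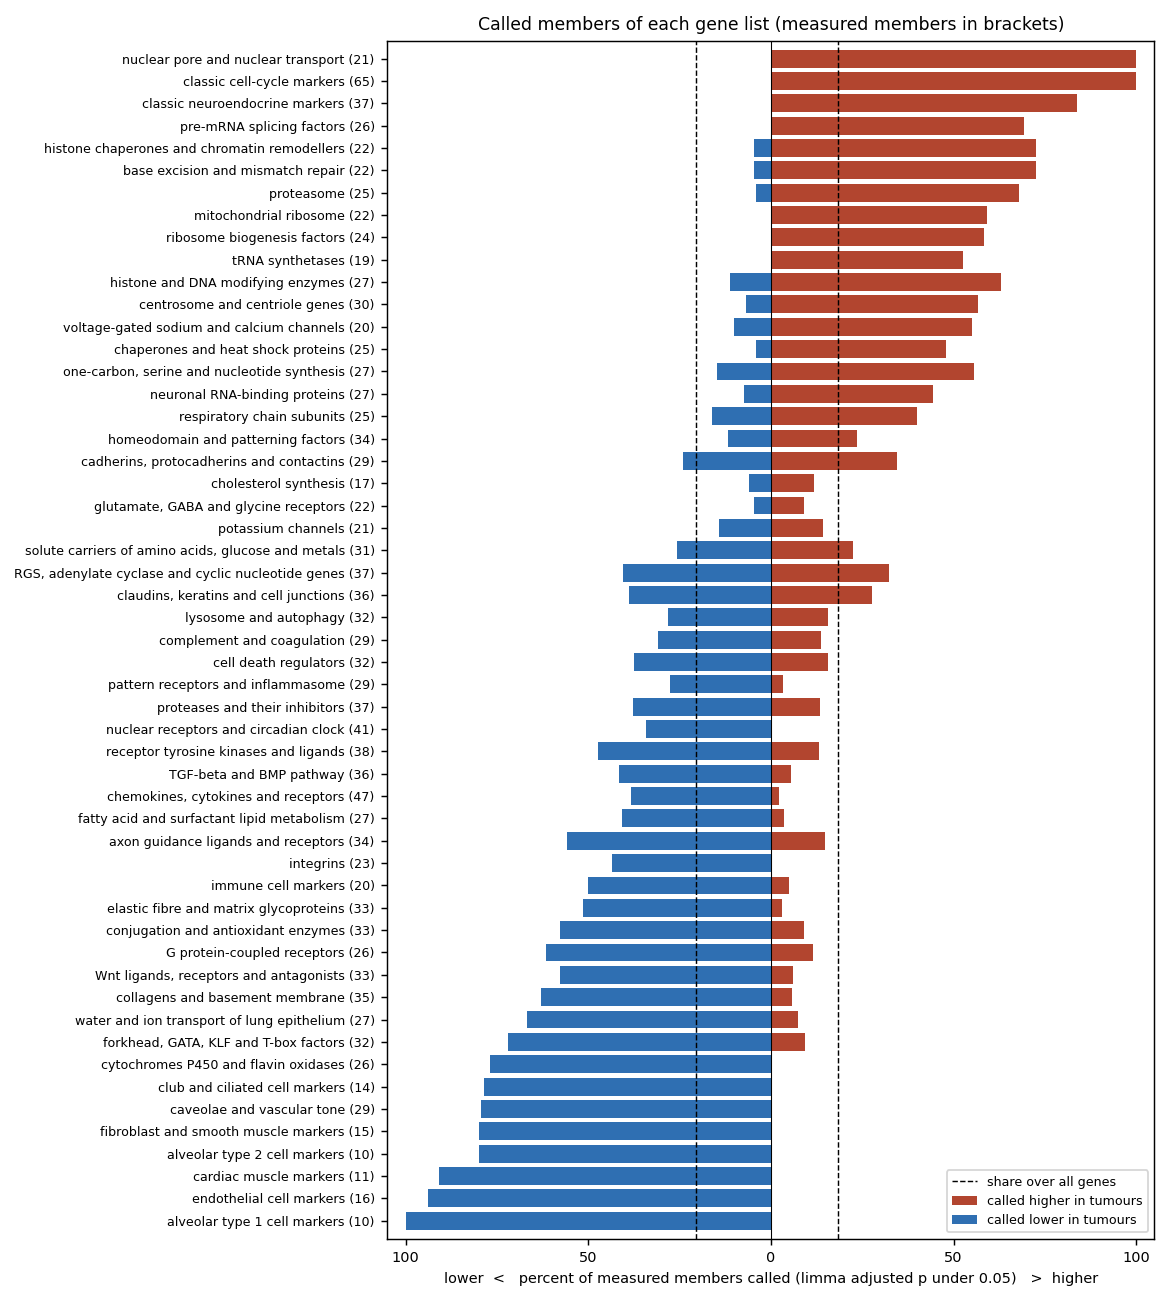
Percent of the measured members of each of the 53 gene lists called higher (red, to the right) or lower (blue, to the left) in Rb/p53 tumours than in normal lung, with dashed lines at the shares over all genes (18.3% and 20.5%). Lists of the nucleus and of protein turnover lie at the top, and vessel, alveolar and cardiac lists at the bottom.

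Tumours differed among themselves in how far lung-type lists had fallen. The mean of the alveolar type 2 markers, set against the mean of both lungs, was lower by between 1.18 and 4.28 log2 units over the 10 tumours (median difference -2.78), and that of type 1 markers by between 2.17 and 4.52. Endothelial markers spread from -4.35 to -2.48. Ranges differed among lists that rose and among lists that fell. Base excision and mismatch repair spread from 0.91 to 1.39, the proteasome from 0.47 to 0.79, and neuronal RNA-binding proteins from 1.33 to 2.23, while axon guidance genes spread from -1.08 to -0.74 and Wnt genes from -1.35 to -0.78. The immune markers spread from -1.96 to -0.61, and the lists for collagens and for chemokines from -1.67 to -0.63 and from -1.56 to -0.31.

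**Figure D4:**
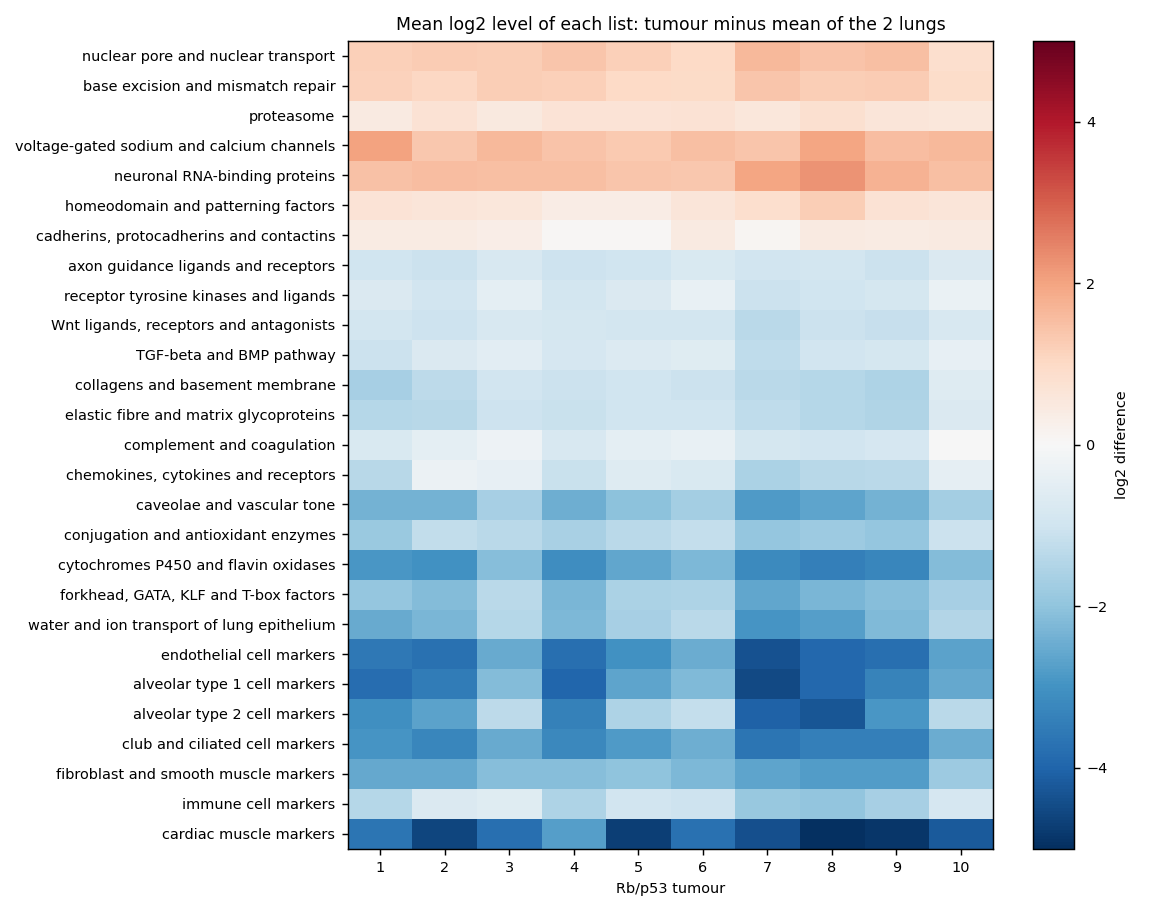
Mean log2 level of the members of 27 gene lists in each of the 10 Rb/p53 tumours, minus the mean of the 2 normal lungs (colour, log2 difference). Columns 3, 6 and 10 are the palest for alveolar type 2 markers and columns 7 and 8 the darkest.

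Single genes covered the range from uniform to highly variable. Over all genes the median SD among the 10 tumours was 0.28. The most uniform large rises included Lrp11, a relative of the LDL receptor, at 11.84, 12.10 and 12.36 in the tumours against 7.46 and 7.63 in the lungs (SD 0.18, 23.3-fold, change 4.54 ± 0.13, adjusted p = 2.93e-11). The zinc transporter Tmem163 (8.31-fold, SD 0.20), the zinc-finger protein Zfp618 (14-fold, SD 0.24), the complexin Cplx2 (21.3-fold, SD 0.21), the granin family member Scg3 (60.7-fold, SD 0.21) and the cytokinesis protein Prc1 (28-fold, SD 0.24) were the others. The most variable called genes included Tph1, the enzyme of serotonin synthesis outside the brain, at 4.42 and 4.17 in the lungs, 4.92, 8.97 and 12.69 in the tumours (SD 2.19), and Neurog3, the factor that starts endocrine fate in the pancreas, at 5.41 and 4.90 in the lungs and 6.00, 10.61 and 12.44 in the tumours (SD 2.18). Hc, the hemolytic complement component, was 5.13, 8.86 and 11.16 in the tumours against 12.40 and 13.09 in the lungs (SD 2.12), lower in every tumour than in the lungs. The neurofilament Nefl (SD 2.01), the retinal dehydrogenase Aldh1a3 (SD 2.00), the kallikrein Klk1 (SD 2.03), the adhesion molecule Ceacam10 (SD 1.88), AW551984 (SD 2.10), Elavl2 and Car3 made up the rest. For Aldh1a3, Klk1 and AW551984 at least 1 tumour overlapped the lungs. In the fit with the Gapdh covariate the calls of Lrp11, Tmem163, Zfp618, Cplx2, Scg3 and Prc1 held and the others named here ended. Calls ended without either lung for Tph1 (adjusted p = 0.1 to 0.114), Neurog3 (adjusted p = 0.0695 to 0.0977), Hc (adjusted p = 0.129 to 0.201), Aldh1a3 (adjusted p = 0.0796 to 0.113), Klk1 (adjusted p = 0.0682 to 0.129), Ceacam10 (adjusted p = 0.105 to 0.128) and AW551984 (adjusted p = 0.135 to 0.185), and without either lung or tumour 3, 4, 6, 8 or 10 for Nefl (adjusted p = 0.0552 to 0.216). They also ended with the 12 arrays fitted alone for AW551984, Hc and Nefl, with the actin covariate for AW551984, Ceacam10, Hc, Klk1, Nefl, Neurog3 and Tph1.

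**Figure D5:**
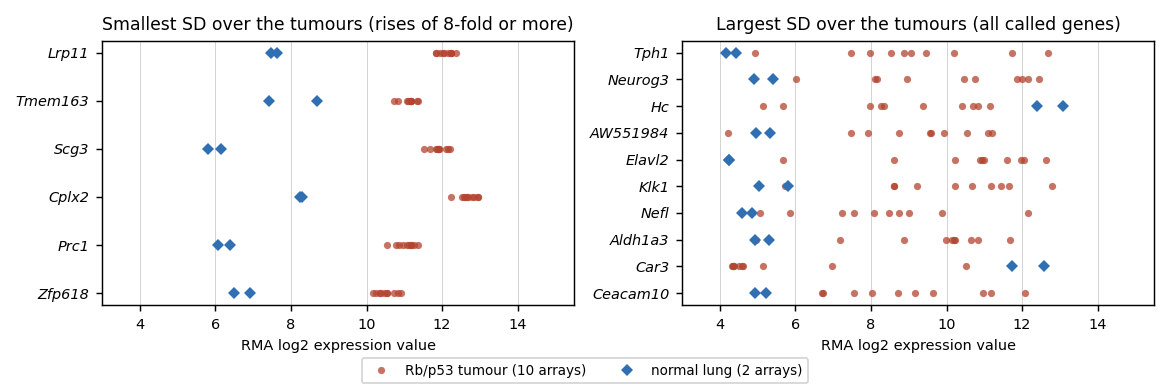
RMA log2 values of the 6 large rises with the smallest SD over the tumours (left) and the 10 called genes with the largest (right), per array, for the 10 Rb/p53 tumours (circles) and 2 normal lungs (diamonds). Lrp11 stays between 11.84 and 12.36 in the tumours, while Tph1 runs from 4.92 to 12.69.

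The smallest measured changes among well-expressed genes were at 0 to 2 decimals. Setd2, the histone H3 methyltransferase of transcribed genes, was 9.47 and 9.74 in the lungs, 9.31, 9.63 and 9.84 in the tumours (change 0.00 ± 0.13). The cochaperone Sugt1 (0.00 ± 0.20), the acetyltransferase Naa60 (0.00 ± 0.17), the zinc-finger protein Zfp771 (0.00 ± 0.12), the actin-binding Cotl1 (0.00 ± 0.28) and the Fc receptor chain Fcer1g of myeloid cells (0.00 ± 0.33) were chosen by the same rule, as the genes with the smallest change. An SE of this size leaves room for changes in either direction, so the data do not show that these genes were equal.

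The 3 tumours that also lacked p130 share their lungs with this comparison, so their values are given side by side and not as a second result. Mthfd2 changed by 4.71 ± 0.24 in Rb/p53 tumours and by 4.75 in Rb/p53/p130 tumours, both against the same lungs. For Prox1 the values were 5.11 ± 0.27 and 5.18, for Col8a1 4.64 ± 0.26 and 4.71, and for Id4 3.59 ± 0.31 and 4.02. For Smarca2 they were -2.92 ± 0.49 and -2.76. Tested directly, 13 of 18193 genes (0.0715%) were called between the tumour genotypes by limma, 10 of which were also called between Rb/p53 tumours and lung, and no gene named here with its own value was among the 13.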

How the data were processed

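Expression had been measured on 15 Affymetrix mouse genome arrays. Per the submitters' processing notes the authors made the values with RMA, which corrects background, sets the arrays to a shared distribution and summarises each probe set, so the deposited values are on a log2 scale; no version of it is named. Quantile normalisation of this kind sets arrays to like medians, so a shift of all genes between tissues cannot be seen.

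The table held 45101 probe sets, and without its 64 controls 45037 were tested; GEO's platform annotation gave 34945 of them 1 gene symbol, 932 several and 9160 none, and 34741 were matched to RefSeq by gene ID. Each of 18193 genes was read from the brightest of its probe sets, by the mean of all arrays. limma 3.58.1 in R 4.3.3 was fitted to all 15 arrays in 3 groups, with p-values adjusted by Benjamini-Hochberg over all probe sets and called under 0.05. Tables and plots were made with Python 3.11.15 and matplotlib 3.10.9. The fit was tested on simulated data. A fold is the back-transformed difference of the group means, with a mean under the floor of 5.05 raised to it and the fold then given as a lower bound.

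The 53 gene lists held 1569 entries, of which 102 could not be matched and were not analysed here. The members and lists were chosen with earlier results of these data known. Genes were named by rule: the 20 highest rises and 20 deepest falls outside the classic lists, without overlap and called without any 1 array; up to 3 rises and 3 falls of each other list, with its brightest uncalled member; the 6 most uniform large rises and 10 most variable called genes; the targeted genes; and the 6 bright genes with the smallest change. A subset of them is named in the text.

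Alternatives were each array left out, the 12 arrays fitted alone, a replicate block, a second quantile normalisation, arrays centred on their medians, bright probe sets alone, the mean of a gene's probe sets, no probe sets shared between transcripts, a trended robust prior, array weights and the Gapdh 3' to 5' difference as a covariate. The actin difference as a covariate was chosen after seeing the data. The number of arrays, 2 in the lung group, limits the precision.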

Additional observations from a re-analysis of the deposited data

Results flagged for a closer look

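In a group of 10 arrays, 1 array can stand apart from the other 9. Over 307 genes and gene-list means reported here, 14 had a highest or lowest tumour whose gap to its neighbour exceeded Dixon's 95% limit. Chance alone gives about 1 such gap in 20 groups, so 14 of 307 is not many. No gene named in the text was called between the tumour genotypes.

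Tumour 4 held the highest Car3, the carbonic anhydrase of muscle, at 10.53 against a tumour median of 4.55, and the highest Sult1d1 (6.78), with the lowest Bex1 (12.20). In tumour 7 the highest Rcc1 (11.12) and the lowest Ccn3 (12.68), Cflar (7.34) and Foxa1 (11.21) were found. Tumour 5 had the lowest Kcnh2 (8.87) and Scn9a (6.76) and the highest Cdh1 (13.48). Adk, the adenosine kinase, was highest in tumour 9 (11.57), Rgs17 lowest in tumour 3 (9.54) and Smad4 lowest in tumour 1 (10.90). The mean of the homeodomain and patterning factors was 7.45 in tumour 8, apart from the other 9 tumours.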

How the results depend on the processing

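The genes called between Rb/p53 tumours and lung numbered 7058, with 3328 higher, 3730 lower and 4179 at 2-fold or more. Leaving out each array in turn gave 4604 to 7194 called, 2035 to 3398 higher, 2511 to 3830 lower and 3483 to 4249 at 2-fold or more, and the lowest called counts came from leaving out normal lung 1 (4604) or normal lung 2 (4705). With the Gapdh covariate 1106 were called (610 higher, 496 lower, 1098 at 2-fold or more), and with the actin covariate, chosen after seeing the data, 4472 (2061 higher, 2411 lower). With bright probe sets alone, 11610 genes remained to be tested and 2444 were lower. Between 5711 and 7455 genes were called with the 12 arrays alone, bright or unshared probe sets, means of probe sets, the other scalings, the other prior or array weights. The cause of these changes was not tested. Whether array numbers pair samples is not known. The correlation of deviations was -0.004 for number 1 and -0.055 for number 2. It cannot decide this, because the deviations of the 2 lungs mirror each other. With the numbers as a replicate block, which leaves 1 residual degree of freedom, 3891 genes were called (1685 higher, 2206 lower, 3864 at 2-fold or more).

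Of 217 called genes named in the text, the Gapdh covariate ended 134 calls, kept 80 and turned the sign of 3: C1qc (-0.64), Cldn6 (-0.075) and Psmb7 (-0.78). The actin covariate ended 26, the block 23, and leaving out normal lung 1 or 2 ended 18 or 13, with no sign turned. Of the 47 list counts of 4 or fewer members, 25 moved over 1.5 times when 1 array was left out, by at most 3 members. Genes near the floor give only a bound on their fold, and 1532 uncalled genes had an unadjusted p under 0.05.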
